A study of Homo sapiens with 8 samples.

Results

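The G protein-coupled receptor genes OR51E1, OR51E2, ADRA2C, ADRB1 and GPR1 were followed through ASPN exposure of LNCaP prostate cancer cells. OR51E1 and OR51E2 are olfactory receptors, ADRA2C and ADRB1 are adrenergic receptors, and GPR1 is a chemerin receptor. The 5 members were picked by gene symbol out of 36474 genes in the count table, and all 5 passed the filter on low counts that left 21071 genes. LNCaP is an established cell line that was grown out of a metastasis of a human prostate carcinoma. By the labels and the methods, every culture was starved for 6 to 12 h in medium without serum or calcium. Recombinant ASPN (asporin, a secreted matrix protein) was used at 100 ng/mL. RNA was taken after 0 h (2 libraries, the baseline), 12 h (3 libraries) or 24 h (3 libraries). No library kept in the medium for 12 or 24 h without ASPN was analysed here, so ASPN and time in the medium cannot be told apart. The symbols were proposed with the changes of these genes between the time points known, among them large changes of GPR1, OR51E2 and ADRA2C, so the members are described without tests.

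G protein-coupled receptors pass a signal across the plasma membrane to heterotrimeric G proteins, many of which raise or lower the second messenger cyclic AMP. Olfactory receptors were named for their role in the nose, where they act through a stimulatory G protein and adenylyl cyclase, but OR51E1 and OR51E2 are also known for their expression in prostate epithelium, under the older names PSGR2 and PSGR. Noradrenaline and adrenaline lower cyclic AMP through ADRA2C and raise it through ADRB1. GPR1 binds chemerin, an adipokine and chemoattractant encoded by RARRES2, and carries the symbol CMKLR2 in newer annotation.

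Library totals ran from 73406825 to 96962135 counts, so that 3 counts correspond to between 0.0310 and 0.0413 CPM (counts per 1000000, scaled by TMM normalization). The mean normalised count of each member was at least 107 over the 8 libraries. The label of the cells was checked with marker genes. All 10 luminal prostate markers were tested and summed to 4857 to 5600 CPM, against 0.0681 to 0.229 CPM for basal markers (1 of 3 tested), 0.0259 to 0.248 CPM for leukocyte (1 of 5), 11.2 to 17.3 CPM for endothelial (1 of 4), 21.2 to 23.8 CPM for fibroblast (4 of 6) and 1.78 to 2.86 CPM for neuroendocrine markers (1 of 4). At an adjusted p of 0.05 by edgeR, 6 luminal markers rose from 0 to 12 h and 8 rose and 1 (KRT18) fell from 0 to 24 h, and VWF and SYP, the tested endothelial and neuroendocrine markers, fell by 0.38 and 0.48 on the log2 scale from 0 to 24 h. Their part in the receptor results was not tested. In these bulk samples, fewer cells expressing a receptor and less of its RNA per cell cannot be told apart.

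Several members have close relatives, and the counting options that decide how shared reads were assigned were not stated. Each member has its whole coding sequence in 1 exon, which makes the aligned coding sequences simple to compare. OR51E1 (957 coding bases) and OR51E2 (963 coding bases) were identical at 64.9% of aligned positions, with a longest identical run of 17 bases. ADRA2C was identical to ADRA2A at 71.1% and to ADRA2B at 70.7% of aligned coding positions, with longest runs of 32 and 39 bases. These runs are shorter than the 150-base reads. For OR51E1 with OR51E2 and for ADRA2C with ADRA2A, the 60-base stretches where each pair was most alike are printed. Reads from there would be the hardest to assign within each pair. They are read 5′ to 3′ on the coding strand of GRCh38, and capitals mark the bases that differ within a pair.
OR51E1, chr11:4652878-4652937, plus strand, coding exon: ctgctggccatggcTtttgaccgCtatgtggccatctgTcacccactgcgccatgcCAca
OR51E2, chr11:4682313-4682372, minus strand, coding exon: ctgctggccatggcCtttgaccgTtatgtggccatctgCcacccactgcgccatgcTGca
ADRA2C, chr4:3766855-3766914, plus strand, coding exon: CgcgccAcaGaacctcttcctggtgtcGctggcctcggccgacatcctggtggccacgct
ADRA2A, chr10:111078236-111078295, plus strand, coding exon: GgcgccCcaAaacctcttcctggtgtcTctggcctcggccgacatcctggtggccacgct
In these stretches the pairs differed at 5 and 4 of 60 positions. ADRA2C and ADRA2B, whose closest stretch is not printed, were more alike there and differed at only 3 of 60 positions.

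The sequences before the start sites also differed among the members. RefSeq promoter windows on GRCh38.p14 were matched for 4 of the 5 members, GPR1 under the symbol CMKLR2, and no window was matched for OR51E2. Over the 250 bases before the start, GC content was 84.8% for ADRA2C, 72.8% for ADRB1, 57.6% for OR51E1 and 40.4% for GPR1, against a median of 58.0% over 35114 promoters. ADRA2C had 44 CpG dinucleotides in its window and ADRB1 had 24, whereas OR51E1 and GPR1 had 2 each. The median over all promoters was 11. The windows of ADRA2C (higher at each later time point), ADRB1 (level) and GPR1 (lower after 0 h) follow, cut to the bases outside GENCODE exons. The GPR1 stretch lies inside the span of the GENCODE gene, between its exons. The OR51E1 window also lies inside the span of its GENCODE gene. All 250 of its bases are in GENCODE exons, so none is printed, and its GC and CpG values are those of exonic sequence. In the windows of GPR1 and ADRA2C, 128 and 37 of the 250 bases are exonic and count towards their GC and CpG values. Capitals mark matches to the motifs searched on both strands, which were GGGCGG (GC box), TGACG (cyclic AMP response element half-site), AGAACA (androgen receptor half-site) and TATAAA.
ADRA2C, chr4:3766135-3766347, plus strand: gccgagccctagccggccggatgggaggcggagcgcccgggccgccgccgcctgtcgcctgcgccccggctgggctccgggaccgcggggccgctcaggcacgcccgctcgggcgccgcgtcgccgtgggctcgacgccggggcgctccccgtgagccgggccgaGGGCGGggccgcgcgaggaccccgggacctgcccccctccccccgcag
ADRB1, chr10:114043616-114043865, plus strand: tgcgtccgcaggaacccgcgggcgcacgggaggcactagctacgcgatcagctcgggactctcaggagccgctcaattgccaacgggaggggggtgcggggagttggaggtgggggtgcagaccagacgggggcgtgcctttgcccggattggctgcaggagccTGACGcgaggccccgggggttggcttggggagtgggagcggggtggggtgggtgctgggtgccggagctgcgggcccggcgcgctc
GPR1, chr2:206213426-206213547, minus strand: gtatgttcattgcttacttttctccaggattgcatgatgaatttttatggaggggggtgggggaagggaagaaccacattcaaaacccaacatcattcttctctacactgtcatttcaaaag
The ADRA2C window held 1 GC box, which 42.6% of all promoters hold at least once, and the ADRB1 window held 1 TGACG, which 21.2% hold. AGAACA and TATAAA, present in 12.4% and 10.7% of promoters, were in none of the 4 windows. No matches overlapped.

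OR51E1 was the most abundant of the 5 receptors per length of transcript and was slightly higher at each later time point, whereas OR51E2 was lower at 12 h and varied widely at 24 h. OR51E1 (ENSG00000180785.10, GRCh38 chr11:4643420-4655488, plus strand, 3612 exonic bases) stood at 12.2 and 12.1 CPM at 0 h. It measured 13.1, 12.7 and 13.2 CPM at 12 h and 14.6, 14.9 and 16.8 CPM at 24 h. The 3 time points did not overlap, and every library of a later time point was above every library of an earlier one. The log2 changes were 0.09 (SE 0.080) from 0 to 12 h, 0.34 (SE 0.080) from 0 to 24 h and 0.24 (SE 0.071) from 12 to 24 h. The 24 h level of 15.4 ± 1.19 CPM (SD, n = 3) was 1.26 times that at 0 h.

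OR51E2 (ENSG00000167332.9, chr11:4680171-4697854, minus strand, 2907 exonic bases) lies 24682 bases beyond the end of OR51E1 and is transcribed towards it. It stood at 1.95 and 2.24 CPM at 0 h. It measured 0.609, 0.920 and 0.927 CPM at 12 h and 1.37, 1.93 and 0.912 CPM at 24 h. All 12 h libraries were below both 0 h libraries, while the 24 h libraries spanned the range from the 12 h level to just under the 0 h level. The log2 change from 0 to 12 h was -1.35 (SE 0.25), a level 0.393 times that at 0 h. The log2 changes from 0 to 24 h and from 12 to 24 h were -0.56 (SE 0.24) and 0.79 (SE 0.23). Both rested on single 24 h libraries. The change from 0 to 24 h was -0.86 without 24 h replicate 2 and -0.34 without 24 h replicate 3, and that from 12 to 24 h was 0.48 and 1.01.

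**Figure D1:**
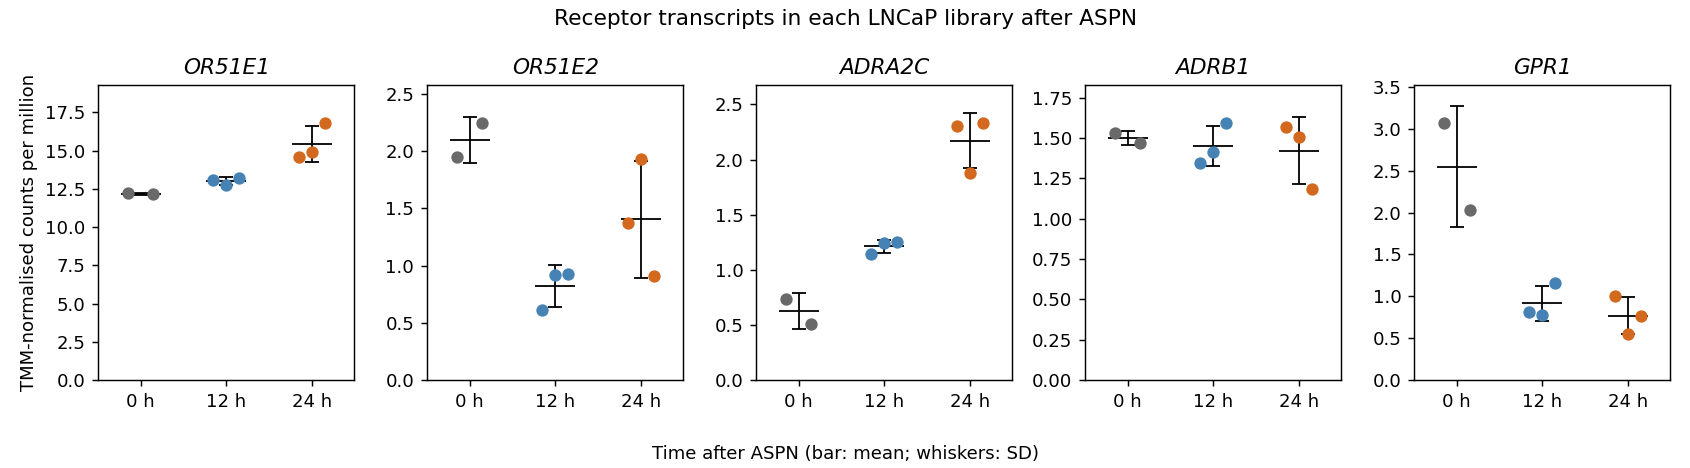
TMM-normalised CPM (vertical axis, from 0, scaled separately for each receptor) of OR51E1, OR51E2, ADRA2C, ADRB1 and GPR1 in each library at 0, 12 and 24 h; points are libraries, bars are means and whiskers are SDs. ADRA2C goes from 0.509 to 0.738 CPM at 0 h to 1.88 to 2.33 CPM at 24 h, GPR1 is at 0.548 to 1.16 CPM in the later libraries, and the 24 h libraries of OR51E2 are spread from 0.912 to 1.93 CPM.

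The OR51E1 to OR51E2 count ratio within a library was 6.27 and 5.42 at 0 h. It was 21.5, 13.8 and 14.2 at 12 h, and 10.6, 7.72 and 18.4 at 24 h. Both 0 h ratios were below all later ones, and the 12 and 24 h ratios overlapped. OR51E1 and OR51E2 together took between 70.4% and 78.0% of all counts on the 110 genes with an olfactory receptor symbol in the table.

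The other olfactory receptors together held 366 to 497 counts per library. Of 108 other genes of the family, 17 passed the filter on low counts, and none reached an adjusted p of 0.05 in any of the 3 comparisons by the edgeR quasi-likelihood test. None had an unadjusted p under 0.05 either, and DESeq2 gave 0 genes as well. The median log2 change of these 17 genes was 0.17 from 0 to 12 h and -0.15 from 0 to 24 h, against -0.00069 and -0.0031 over all genes tested. The most abundant of them per length was OR2A7, at 0.451 CPM per kb of exons over the 8 libraries, which was close to OR51E2 at 0.467 CPM per kb. OR2A7 had log2 changes of 0.17 (adjusted p 0.757), -0.10 (adjusted p 0.853) and -0.27 (adjusted p 0.663) from 0 to 12 h, from 0 to 24 h and from 12 to 24 h.

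None of the tested genes next to the olfactory pair reached an adjusted p of 0.05 by edgeR. OR51D1, which ends 360 bases before OR51E1, had 5 to 29 counts per library and log2 changes of -0.38 (adjusted p 0.815) from 0 to 12 h and -0.02 (adjusted p 0.989) from 0 to 24 h. The pseudogene OR51A9P, between OR51E1 and OR51E2, had 263 to 390 counts, with log2 changes of -0.33 (adjusted p 0.135) and -0.07 (adjusted p 0.825). OR51C1P overlaps OR51E2 on the same strand over 201 exonic bases, 6.91% of the OR51E2 exons, but held only 0 to 7 counts per library.

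ADRA2C was higher at each later time point. ADRA2C (ENSG00000184160.8, chr4:3766348-3768526, plus strand, 2179 exonic bases) stood at 0.738 and 0.509 CPM at 0 h. It measured 1.14, 1.24 and 1.25 CPM at 12 h and 2.31, 1.88 and 2.33 CPM at 24 h. None of the 3 time points overlapped, and each later group was wholly above the one before. The log2 change was 0.95 (SE 0.24) from 0 to 12 h, 1.78 (SE 0.23) from 0 to 24 h and 0.84 (SE 0.19) from 12 to 24 h. The 24 h level was 3.44 times that at 0 h, and the 12 h level 1.93 times. The starting level rested on 65 and 37 counts. Without 0 h replicate 1, the changes from 0 h to 12 and 24 h were 1.25 and 2.08, and without the other 0 h library they were 0.73 and 1.56.

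ADRB1 (ENSG00000043591.6, chr10:114043866-114046904, plus strand, 3039 exonic bases) differed little between time points. It stood at 1.53 and 1.47 CPM at 0 h, at 1.35, 1.41 and 1.59 CPM at 12 h and at 1.57, 1.51 and 1.18 CPM at 24 h. The libraries of the 3 time points overlapped. Log2 changes were -0.05 (SE 0.21) from 0 to 12 h, -0.07 (SE 0.21) from 0 to 24 h and -0.03 (SE 0.19) from 12 to 24 h. The ratio of ADRA2C to ADRB1 CPM went from 0.481 and 0.346 at 0 h to 0.846, 0.881 and 0.784 at 12 h. At 24 h it was 1.47, 1.25 and 1.97. ADRA2C was thus the scarcer of the pair in every library at 0 and 12 h and the more abundant in all 3 libraries at 24 h, before transcript length was taken into account.

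**Figure D2:**
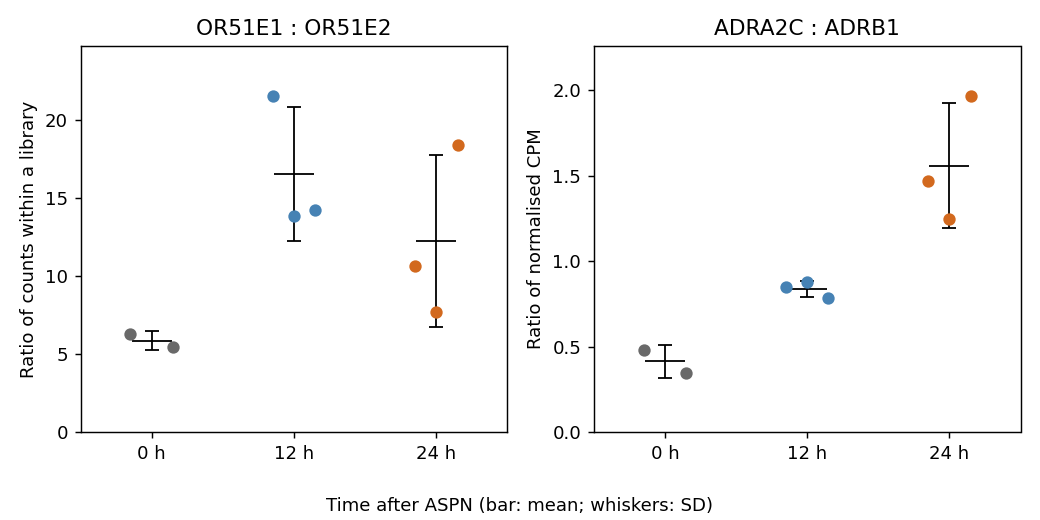
Ratio of OR51E1 to OR51E2 counts (left) and of ADRA2C to ADRB1 normalised CPM (right) within each library (vertical axes, from 0) at 0, 12 and 24 h; points are libraries, bars are means and whiskers are SDs. The olfactory ratio is 5.42 to 6.27 at 0 h and 7.72 to 21.5 later, and the adrenergic ratio passes from 0.346 to 0.481 at 0 h to 1.25 to 1.97 at 24 h.

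None of the other adrenergic receptors compared passed as higher in any comparison. Of 6 further adrenergic receptors on the list, 4 were in the count table and were compared. Of these 4, 2 fell and none rose from 0 to 12 h at an adjusted p of 0.05 by edgeR, and 1 fell from 0 to 24 h. ADRA1A, which signals through Gq to calcium, stood at 7.00 and 5.62 CPM at 0 h. It measured 4.33, 4.56 and 4.59 CPM at 12 h and 3.38, 3.77 and 3.35 CPM at 24 h. The time points of ADRA1A did not overlap, and its log2 changes were -0.49 (SE 0.12, adjusted p 0.0065) from 0 to 12 h, -0.85 (SE 0.12, adjusted p 5.12e-06) from 0 to 24 h and -0.36 (SE 0.11, adjusted p 0.0908) from 12 to 24 h. ADRA2A, like ADRA2C coupled to inhibitory G proteins, fell by 0.23 on the log2 scale (SE 0.061, adjusted p 0.0092) from 0 to 12 h and had -0.14 (SE 0.061, adjusted p 0.113) from 0 to 24 h. ADRA1D had log2 changes of -0.22 (adjusted p 0.877) and -0.62 (adjusted p 0.575). ADRA2B had 2 and 4 counts at 0 h, 5, 7 and 5 at 12 h and 11, 24 and 6 at 24 h. In CPM its time points did not overlap and were in the same order as those of ADRA2C, with log2 changes of 0.80 (adjusted p 0.692) from 0 to 12 h, 1.96 (adjusted p 0.158, unadjusted p 0.0408) from 0 to 24 h and 1.17 (adjusted p 0.524) from 12 to 24 h. The changes of ADRA1A and ADRA2A from 0 to 12 h did not pass without 0 h replicate 1, with adjusted p values of 0.339 and 0.189, and over all alternatives these ranged from 0.0029 to 0.339 and from 0.0047 to 0.189.

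No gene next to ADRA2C or ADRB1 overlaps them. LINC02600 and ALG1L7P, on either side of ADRA2C, had 6 to 33 counts per library and did not reach an adjusted p of 0.05 in any comparison. NHLRC2, on one side of ADRB1, did not pass either. On the other side, CCDC186 (73958 bases away) fell by 0.29 on the log2 scale (adjusted p 0.00033 by edgeR) from 0 to 12 h and by 0.23 (adjusted p 0.0022) from 0 to 24 h. Neither change of CCDC186 passed without 0 h replicate 1.

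GPR1 was lower at both later time points. GPR1 (ENSG00000183671.12, chr2:206175316-206218047, minus strand, 2821 exonic bases) stood at 3.06 and 2.04 CPM at 0 h. It measured 0.817, 0.774 and 1.16 CPM at 12 h and 1.00, 0.548 and 0.762 CPM at 24 h. Both 0 h libraries were above all 6 later ones, while the 12 and 24 h libraries overlapped. The log2 change was -1.48 (SE 0.25) from 0 to 12 h and -1.73 (SE 0.25) from 0 to 24 h, levels 0.359 and 0.301 times that at 0 h. From 12 to 24 h it was -0.25 (SE 0.24). The 0 h libraries themselves differed, with 270 and 148 counts. Without 0 h replicate 1 the changes at 12 and 24 h were -1.15 and -1.41, and without the other 0 h library -1.73 and -1.99. From 12 to 24 h the change was -0.05 without 12 h replicate 3 and -0.50 without 24 h replicate 1.

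The ligand of GPR1 was measured as well. RARRES2, the chemerin gene, had 67 to 144 counts per library and stood at 1.12 and 1.17 CPM at 0 h. It measured 1.02, 1.04 and 1.45 CPM at 12 h and 1.01, 1.49 and 0.912 CPM at 24 h. The RARRES2 groups overlapped, with log2 changes of 0.04 (SE 0.25, adjusted p 0.956) and -0.0024 (SE 0.25, adjusted p 0.996) from 0 h to 12 and 24 h. The other chemerin receptors, CMKLR1 and CCRL2, were not analysed here. GPR1-AS overlaps GPR1 on the opposite strand without sharing exonic bases and held 0 to 3 counts per library. ZDBF2, 56616 bases from GPR1, fell by 0.32 on the log2 scale (adjusted p 0.0023 by edgeR) from 0 to 12 h and by 0.38 (adjusted p 0.00018) from 0 to 24 h, and neither change passed without 0 h replicate 1. EEF1B2, on the other side, did not pass in any comparison.

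**Figure D3:**
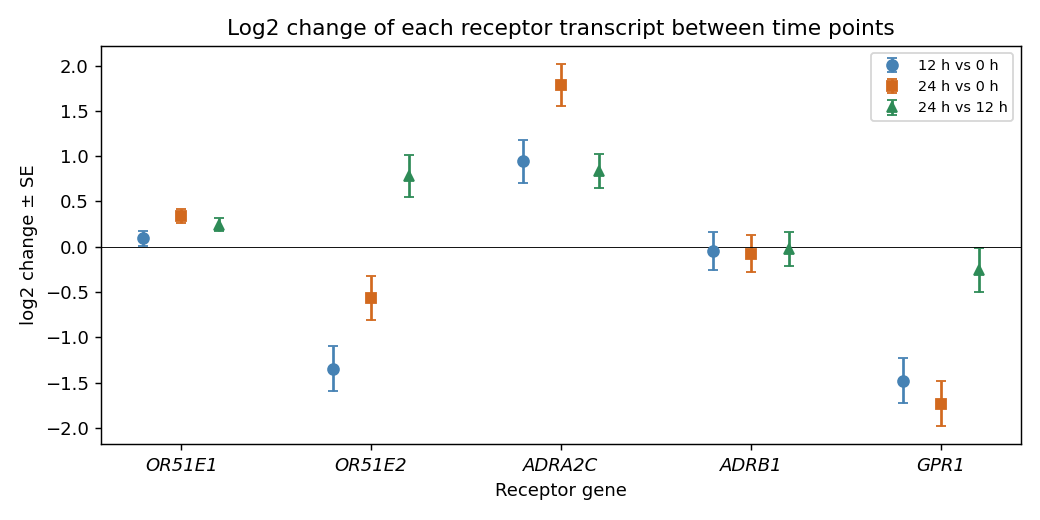
Log2 change (vertical axis) of each receptor transcript from 0 to 12 h (circles), from 0 to 24 h (squares) and from 12 to 24 h (triangles), with SE bars from the edgeR fit. ADRA2C is at 0.95 and 1.78 and GPR1 at -1.48 and -1.73 against 0 h, and ADRB1 is within 0.08 of 0 in all 3 comparisons.

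A gene was called where it changed by at least 1.5-fold with an adjusted p of at most 0.05. From 0 to 12 h, 3 of the 5 members met this rule (ADRA2C higher, OR51E2 and GPR1 lower), where 1.05% of all tested genes did, 0.489% higher and 0.565% lower. From 0 to 24 h, 2 members met it (ADRA2C and GPR1) against 2.45% of all genes, 1.10% higher and 1.35% lower. From 12 to 24 h 1 member, ADRA2C, met it against 0.180%, of which 0.0759% were higher and 0.104% lower. Groups did not overlap for 4 members from 0 to 12 h, 4 from 0 to 24 h and 2 from 12 to 24 h, against 36.9%, 43.2% and 19.6% of all genes tested. Because the members were chosen with these comparisons known, nothing is read from these shares. Both comparisons with 0 h use the same 2 libraries. Of 15 processing alternatives, the ADRA2C call held under 14 from 0 to 12 h. It held under 15 from 0 to 24 h and under 13 from 12 to 24 h. The calls of GPR1 and OR51E2 held under all 15. OR51E2 also met the rule under 2 alternatives from 0 to 24 h and under 3 from 12 to 24 h.

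Levels of different receptors were compared as CPM per kb of exons. Among 178 adrenergic, olfactory, chemerin and orphan receptor genes compared, OR51E1 ranked 5th with a mean of 3.80 CPM per kb over the 8 libraries. ADRA2C ranked 14th (0.654 CPM per kb), ADRB1 17th (0.478), OR51E2 18th (0.467) and GPR1 20th (0.450). The highest level among them was that of ADRA2A at 10.1 CPM per kb. OR51E1 exceeded 63.2% of all tested genes per length, and the other 4 members exceeded between 32.9% and 37.7%. The 3.36 to 4.65 CPM per kb of OR51E1 overlapped the ranges of its neighbours in the order, GPR176 (4.03 to 4.60) and LGR4 (3.11 to 3.51).

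The order of the 4 scarcer members on this scale differed between time points. At 0 h, GPR1 (0.721 and 1.09 CPM per kb) and OR51E2 (0.672 and 0.771) overlapped and were above ADRB1 (0.484 and 0.504), which was above ADRA2C (0.233 and 0.339). At 12 h, ADRA2C (0.524 to 0.573) and ADRB1 (0.444 to 0.524) came first and touched at their ends, followed by GPR1 (0.274 to 0.410) and OR51E2 (0.210 to 0.319), which overlapped. At 24 h ADRA2C (0.863 to 1.07) was above the other 3 in every library, OR51E2 (0.314 to 0.665) and ADRB1 (0.390 to 0.517) overlapped, and GPR1 (0.194 to 0.354) was below ADRB1.

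**Figure D4:**
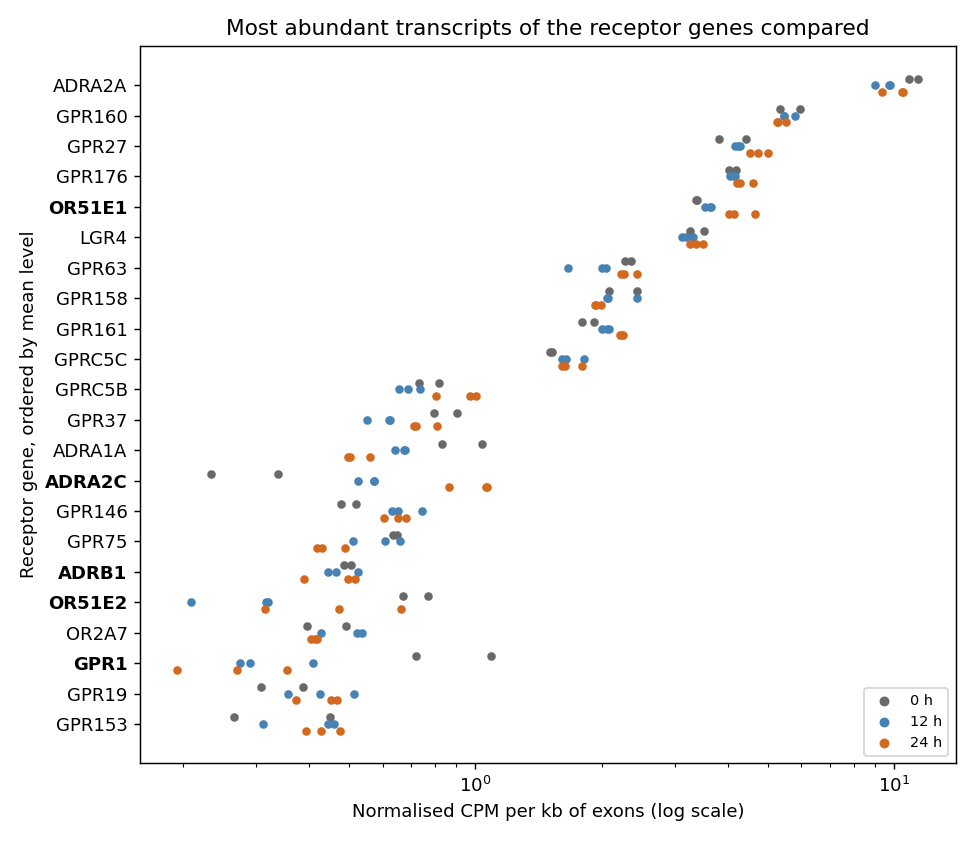
Normalised CPM per kb of exons (horizontal axis, log scale) of the 22 most abundant of the receptor genes compared, ordered by their mean over the 8 libraries, with 1 point per library coloured by time. OR51E1 is the fifth with 3.36 to 4.65 CPM per kb, and the other members in bold lie between 0.194 and 1.09 CPM per kb.

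Transcripts with the most similar course were looked for among 11584 protein-coding genes with a mean of at least 100 normalised counts, by the root mean square difference of centred log2 CPM over the 8 libraries. For ADRA2C these were MISP3, WNT7B and CDCA7, at differences of 0.29 to 0.32, and their log2 changes from 0 to 24 h were 1.23, 1.13 and 1.13 against 1.78 for ADRA2C. For GPR1 they were PLEKHH2, FIBIN and ADA2 at 0.28 to 0.35, with changes of -1.32, -1.50 and -1.45. The SD between libraries of a time point was 0.205 on the log2 scale for ADRA2C and 0.385 for GPR1, which exceeds its 3 differences. For OR51E2 the nearest were DYNC1I1, MAN1A1 and FRMD6, at 0.41 each, where the SD of OR51E2 between libraries of a time point was itself 0.41 on the log2 scale, and their changes from 0 to 12 h were -0.64, -0.73 and -0.56 against -1.35 for OR51E2. The courses of OR51E1 and ADRB1 were flat enough to be matched by many genes, with GJC1, TMEM62 and SCD5 within 0.041 of OR51E1 and GOLT1A, RABL2A and ID2 within 0.065 of ADRB1.

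Other receptors, ligand handling and cyclic AMP signalling were covered by 11 lists, none of which was tested against other genes. Of their 225 genes, 198 were in the table and 138 were tested. At an adjusted p of 0.05 by edgeR, 7 rose and 15 fell from 0 to 12 h, a share of 15.9% against 11.6% of all genes tested (4.85% higher and 6.75% lower). From 0 to 24 h, 19 rose and 10 fell, or 21.0% against 16.3% (7.82% higher and 8.49% lower), and from 12 to 24 h 4 rose and 2 fell, or 4.35% against 2.72% (1.12% higher and 1.61% lower). The lists were chosen with earlier results of these data known, so nothing is read from these shares. Their median log2 change was -0.04 from 0 to 12 h and 0.00039 from 0 to 24 h. By edgeR 1 list gene was called from 0 to 12 h, a share of 0.725% against 1.05% of all genes tested. From 0 to 24 h 6 were called, or 4.35% against 2.45%, and nothing is read from these shares either. DESeq2 called 0 and 6 list genes in these comparisons. From 12 to 24 h none was called by edgeR or by DESeq2, where edgeR called 0.180% of all genes. An unadjusted p under 0.05 by edgeR was found there for 30 list genes.

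**Figure D5:**
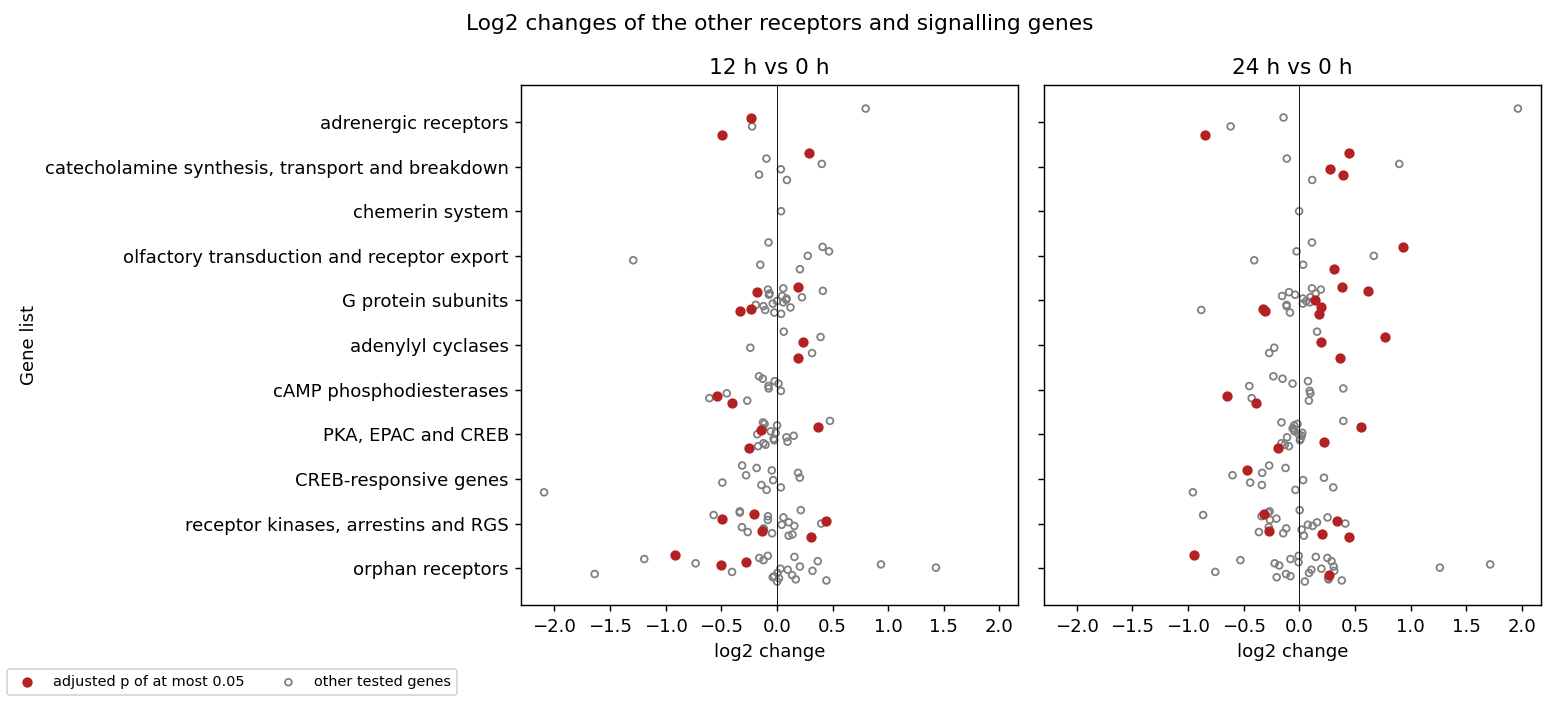
Log2 changes (horizontal axes) from 0 to 12 h (left) and from 0 to 24 h (right) of the 138 tested genes of the 11 lists (rows), with filled points for an adjusted p of at most 0.05. Filled points number 22 on the left, 15 of them below 0, and 29 on the right, 19 of them above 0.

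DBH and PNMT, which make noradrenaline and adrenaline, held 0 to 3 counts and 0 to 1 count per library and were not tested. On the same list, 3 of 6 tested genes of catecholamine synthesis, transport and breakdown rose from 0 to 24 h and none fell. DDC, which makes dopamine from its precursor, had 56.1 and 50.1 CPM at 0 h and 68.5, 69.0 and 71.2 CPM at 24 h, which corresponds to 0.39 on the log2 scale (SE 0.059, adjusted p 8.72e-06). MAOA, a monoamine-degrading oxidase, rose by 0.27 (adjusted p 1.33e-05) over the same interval, and SLC29A4 by 0.45 (adjusted p 0.00011). This change of SLC29A4 was not followed through the alternatives. The transporter gene SLC29A4 rose by 0.28 (adjusted p 0.0166) from 0 to 12 h, which did not pass without 0 h replicate 1 or 12 h replicate 1 (adjusted p 0.0045 to 0.446 over 15 alternatives). From 12 to 24 h, DDC rose by 0.55 (adjusted p 5.14e-08) and MAOA by 0.24 (adjusted p 0.00023).

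Of 7 tested genes of olfactory transduction and receptor export, 2 rose from 0 to 24 h. REEP1, a membrane-shaping protein that helps olfactory receptors to the cell surface, had a log2 change of 0.94 (SE 0.21, adjusted p 0.0016), and ADCY3, the adenylyl cyclase of olfactory neurons, one of 0.31 (SE 0.079, adjusted p 0.0055). REEP1 stood at 1.14 and 0.908 CPM at 0 h and at 1.77, 2.07 and 2.06 CPM at 24 h, without overlap. From 0 to 12 h none of the 7 genes passed by edgeR or DESeq2, and 1 had an unadjusted p under 0.05.

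Of 22 G protein subunits, 1 rose and 3 fell from 0 to 12 h, and 5 rose and 2 fell from 0 to 24 h. GNA13, an alpha subunit gene, fell by 0.33 on the log2 scale (adjusted p 5.70e-05) and by 0.31 (adjusted p 5.96e-05), and the gamma subunit gene GNG12 fell by 0.18 (adjusted p 0.0257) from 0 to 12 h. Among other gamma subunits, GNG7 rose by 0.38 (adjusted p 4.73e-05) and GNG13 by 0.61 (adjusted p 0.0347) from 0 to 24 h, and GNG4 by 0.27 (adjusted p 0.0359) from 12 to 24 h. GNG4 did not pass in 5 of the 8 fits that left out 1 library (adjusted p 0.0163 to 0.223 over 15 alternatives), GNG12 did not pass under 4 alternatives (0.0102 to 0.483) and GNG13 under 2 (0.0244 to 0.434). Adenylyl cyclases, which make cyclic AMP, had 2 of 6 genes rise from 0 to 12 h (ADCY6 by 0.24, adjusted p 0.0062, and ADCY1 by 0.19, adjusted p 0.0297). From 0 to 24 h 3 of 6 rose, ADCY7 by 0.77 (SE 0.18, adjusted p 0.0022) and ADCY1 by 0.37 (adjusted p 2.33e-05) among them. The change of ADCY1 from 0 to 12 h did not pass under 4 of 15 alternatives, including the replicate block (adjusted p 0.0085 to 0.325), and ADCY6 from 0 to 12 h (0.00059 to 0.184) and ADCY7 from 0 to 24 h (0.00048 to 0.159) did not pass without 0 h replicate 1.

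Of 12 phosphodiesterases that break cyclic AMP down, the same 2, PDE10A and PDE2A, passed as lower at both later time points and none rose. PDE10A had log2 changes of -0.41 (SE 0.052, adjusted p 2.00e-06) and -0.39 (SE 0.052, adjusted p 1.26e-06) from 0 h to 12 and 24 h. PDE2A had -0.54 (adjusted p 0.0469) and -0.65 (adjusted p 0.0113), but its change from 0 to 12 h did not pass under 9 of 15 alternatives, the replicate block among them (adjusted p 0.0317 to 0.573 over all 15), and that from 0 to 24 h under 2 (0.0077 to 0.310). Among 19 genes of protein kinase A, EPAC and CREB, the regulatory subunit PRKAR1B rose by 0.37 (adjusted p 0.00066) from 0 to 12 h and by 0.55 (adjusted p 9.47e-07) from 0 to 24 h. The change of PRKAR1B from 0 to 12 h did not pass without 0 h replicate 1. The transcription factor ATF1 fell by 0.25 (adjusted p 0.0105) from 0 to 12 h, the CREB coactivator CRTC1 rose by 0.22 (adjusted p 0.0117) from 0 to 24 h, and EP300 fell by 0.20 (adjusted p 0.0147) from 12 to 24 h. EP300 did not pass without 12 h replicate 3, 24 h replicate 2 or 24 h replicate 3 (adjusted p 0.0017 to 0.211 over 15 alternatives), CRTC1 without 0 h replicate 1 or 24 h replicate 1 or 2 (0.0034 to 0.338), and ATF1 without 0 h replicate 1 or 12 h replicate 1 (0.0041 to 0.342). Of 12 CREB-responsive genes, 1 passed from 0 to 24 h, the clock gene PER1, at -0.47 (SE 0.078, adjusted p 4.12e-05), and PER1 was also the 1 gene that passed from 12 to 24 h, at -0.42 (adjusted p 0.00049). None of these 12 passed from 0 to 12 h by edgeR or DESeq2, with 3 at an unadjusted p under 0.05.

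Of 23 receptor kinases, arrestins and regulators of G protein signalling, 2 rose and 3 fell from 0 to 12 h, and 3 rose and 2 fell from 0 to 24 h. ARRB1, the arrestin that ends signalling of adrenergic and other receptors, rose by 0.31 (adjusted p 0.00025) and by 0.45 (adjusted p 3.69e-07). RGS14 rose by 0.44 (adjusted p 0.0013) from 0 to 12 h, and the receptor kinase GRK2 fell by 0.27 (adjusted p 2.65e-05) from 0 to 24 h. The RGS14 change did not pass without 0 h replicate 1. Of 26 tested genes on the orphan receptor list, 3 fell and none rose from 0 to 12 h: LGR6 by 0.92 (SE 0.25, adjusted p 0.0139), GPR37 by 0.50 (adjusted p 0.0112) and GPR63 by 0.28 (adjusted p 0.0311). The GPR37 change did not pass without 0 h replicate 1. From 0 to 24 h LGR6, a receptor for R-spondins and so no longer an orphan, fell by 0.94 (adjusted p 0.0077) and GPR161 rose by 0.26 (adjusted p 0.0036). The GPR161 change did not pass without 0 h replicate 1, nor the LGR6 change without the other 0 h library. From 12 to 24 h GPRC5B rose by 0.41 (adjusted p 0.0283), which did not pass in 5 of the 8 fits that left out 1 library (adjusted p 0.0129 to 0.191 over 15 alternatives). From 0 to 12 h, GPR63 did not pass under 4 alternatives (adjusted p 0.0144 to 0.279) and LGR6 under 3 (0.0144 to 0.124), among them the leaving out of either 0 h library.

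Without 0 h replicate 1, which leaves 1 library at 0 h that is assumed to vary like the other groups, the number of list genes at an adjusted p of 0.05 went from 22 to 3 from 0 to 12 h and from 29 to 18 from 0 to 24 h. Of the named neighbours and list genes that passed, 15 of 18 no longer did from 0 to 12 h, and 7 of 21 from 0 to 24 h. The labels call the libraries biological replicates and the methods describe wells plated in parallel, so p-values measure the spread between such wells of 1 cell line.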

How the data were processed

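RNA-Seq read counts of 8 LNCaP libraries were used. The authors trimmed reads with Cutadapt, aligned them to GRCh38 with STAR and counted them per GENCODE gene with featureCounts, and they deposited raw counts, with no normalization. One time-0 library had been left out by the authors for quality. Strand, read-pair and multi-mapping options were not given in the sources used here. Groups came from the labels. One of the time-0 columns is numbered 3, unlike any time-0 label, and entered without a replicate number.

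The members and gene lists were chosen with earlier results of these data known. Counts were fitted with the edgeR 4.0.16 quasi-likelihood test (R 4.3.3, robust, TMM, filterByExpr, 1 coefficient per time point, all 8 libraries), with Benjamini-Hochberg adjustment over 21071 genes. A gene was called at a fold of at least 1.5 and an adjusted p of at most 0.05, and the biological coefficient of variation was 5.59%. SEs follow from each log2 change and its F value. The procedure was tested on simulated counts. Replicates were compared by chi-square per degree of freedom, which was 5.32 to 15.2, so each library counted once. Limits of 3 counts cover counting error only.

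Genes named were the members, the tested adrenergic and chemerin genes of the lists, and olfactory receptors with a mean of at least 10 normalised counts. For each other list and comparison, the 2 genes of smallest p were named. They were taken from genes that passed with a mean of at least 100 normalised counts. All called list genes, neighbours on the chromosome and, for each member, the 3 genes of most similar course were named too. Of these olfactory receptors, OR2A7 and OR51D1 are given by value. KRT18, VWF and SYP, of the marker lists, were picked out after their values were seen. Coding sequences and exons were taken from GENCODE 44, and coding sequences were aligned with Biopython 1.88. Its coordinates equalled the table's for 30996 of 30996 identifiers shared with the same version number. GPR1 is ENSG00000183671.12 in the count table and ENSG00000183671.13 in GENCODE 44. It was not among these, and its exon length is that of the newer version. Promoter windows were from RefSeq. An item that the naming rule covers was left out of the lists and ranks and is not reported.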

Additional observations from a re-analysis of the deposited data

How the results depend on the processing

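In all, 15 alternatives were run: RLE and upper-quartile normalization, no filter beyond 1 count or a mean of at least 100 normalised counts, DESeq2 1.42.0, the compared time points alone, each of the 8 libraries left out, and a replicate block. Some genes of few counts had a value under fewer of them, such as LGR6 from 0 to 12 h under 13 and ADRA2B from 12 to 24 h under 9. Of 360 values for the gene counts and the members' log2 changes, 341 stayed within 1.5 times (counts) or 1 SD between replicates (log2 changes) and 19 moved, and none of the members' called changes turned direction. With a mean of at least 100 normalised counts, 140 genes were called from 0 to 12 h (222 otherwise) and 322 from 0 to 24 h (516 otherwise). DESeq2 called 25 genes from 12 to 24 h (38 by edgeR) and passed 11 list genes there (6 by edgeR). Fitted to the compared time points alone, 12 list genes passed from 0 to 12 h. With 1 library left out at a time, called genes ranged from 78 (without 0 h replicate 1) to 300 from 0 to 12 h, from 265 (without 0 h replicate 1) to 567 from 0 to 24 h, and from 16 (without 24 h replicate 1 or 2) to 46 from 12 to 24 h. List genes that passed ranged from 3 to 25, from 18 to 33 and from 3 to 7. The ADRA2C log2 change ranged from 0.73 to 1.25 from 0 to 12 h and from 1.56 to 2.08 from 0 to 24 h. The cause was not tested.

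Whether the replicate numbers pair the samples could not be decided from so few libraries per group. Deviations of same-numbered 12 and 24 h libraries from their group means correlated at 0.10, 0.027 and 0.029. Those of differently numbered 12 and 24 h libraries ranged from -0.077 to 0.052. Deviations of 0 h replicate 1 correlated at -0.15 and -0.092 with those of the same-numbered 12 and 24 h libraries. With the replicate block, 12 list genes passed from 12 to 24 h (6 without it), and called genes numbered 219, 467 and 42.

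Depth limits the scarcer members most. ADRA2C rested on 37 to 210 counts per library, ADRB1 on 87 to 146, GPR1 on 53 to 270 and OR51E2 on 47 to 187, against 883 to 1443 for OR51E1.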
